A study of Mus musculus with 5 samples.

Results

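The 10 genes described here encode the machinery with which a cell displays peptides on major histocompatibility complex (MHC) class I, together with the inducible proteasome subunits and the transactivator of the pathway. They were taken by gene symbol from a table of 55335 genes, and all 10 had enough counts to be among the 16380 genes tested. The heavy chains H2-K1 and H2-D1 and the light chain B2m form the class I molecule, Tap1, Tap2 and Tapbp move and load the peptides, Psmb8, Psmb9 and Psmb10 are the catalytic subunits of the immunoproteasome, and Nlrc5 switches the pathway on. Primary mouse lung fibroblasts, grown in culture, made up 3 libraries after 24 h with 5 ng/mL of the cytokine TGF-β1 and 2 libraries after vehicle alone. The series calls the replicates biological and independent, but the sources used here do not give the mouse strain or whether each replicate was its own animal, and the spread behind every p-value is that among these 5 libraries. Because there are only 2 controls, each is shown separately throughout.

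Class I molecules are found on nearly all nucleated cells and show peptides cut from cytosolic proteins to CD8+ T cells. The proteasome makes the peptides, the TAP1-TAP2 transporter carries them into the endoplasmic reticulum, and tapasin, the product of Tapbp, holds an empty class I molecule at the transporter until a peptide fits. Interferons raise most of these genes together, acting through STAT and IRF transcription factors, and NLRC5 acts with the DNA-binding RFX, CREB/ATF and NF-Y proteins on a promoter module of X and Y boxes. TGF-β1, which acts through SMAD factors and turns cultured fibroblasts into matrix-secreting myofibroblasts, is known in general as an immunosuppressive cytokine.

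Stretches of the promoters of the 2 classical heavy chains and of B2m are printed because they hold X- and Y-box motifs of this module. The heavy-chain promoters also hold a kappaB site and an IRF core, which are not part of that module. A further reason is that the heavy chains and B2m differed in whether they passed the test. Promoter sequences were those of RefSeq (GRCm38.p6), which held an entry for 8 of the 10 genes, and the 250 bases before the transcription start were searched on both strands. Sequences are written 5′ to 3′ on the gene's own strand, and capitals mark the motif matches. The first pair runs from a kappaB site (GGG, any 2 bases, then TTCCC), bound by NF-κB proteins, to an IRF core (AANNGAAA, here on the opposite strand), the core of the interferon-stimulated response element, in H2-K1 (chr17:34000429-34000458, minus strand) and H2-D1 (chr17:35262923-35262952, plus strand).
H2-K1: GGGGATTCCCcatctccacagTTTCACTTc
H2-D1: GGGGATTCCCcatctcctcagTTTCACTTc
These 2 stretches were identical at 29 of 30 bases. The next set runs from the half-site of the X2 box (TGACG), bound by CREB/ATF proteins, to the Y box (CCAAT, here read on the opposite strand as ATTGG), bound by NF-Y, in H2-K1 (chr17:34000359-34000388, minus strand), H2-D1 (chr17:35262993-35263022, plus strand) and B2m (chr2:122147609-122147638, plus strand).
H2-K1: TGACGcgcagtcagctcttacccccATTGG
H2-D1: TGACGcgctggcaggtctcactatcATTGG
B2m: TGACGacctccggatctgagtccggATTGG
All 3 had the same 20 bases of spacing between the half-site and the Y box. The stretches of H2-K1 and H2-D1 were identical at 23 of 30 bases, whereas B2m shared 13 with H2-K1 and 12 with H2-D1, 10 of which are the motifs themselves in each case. The 250 bases before the start are printed for H2-K1 (chr17:34000348-34000597, minus strand) and B2m (chr2:122147437-122147686, plus strand), as a heavy chain that fell with TGF-β1 and the light chain, which was not called. That of H2-D1 is not printed because it overlaps 5′ UTRs of other annotated transcripts. The H2-D1 stretches above lie before its RefSeq start but inside its GENCODE M21 gene span, which starts further upstream.
H2-K1: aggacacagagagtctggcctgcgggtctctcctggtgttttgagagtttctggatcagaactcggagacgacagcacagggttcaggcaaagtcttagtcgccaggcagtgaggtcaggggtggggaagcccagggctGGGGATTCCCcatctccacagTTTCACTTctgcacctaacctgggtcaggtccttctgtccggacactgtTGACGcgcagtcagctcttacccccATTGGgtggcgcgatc
B2m: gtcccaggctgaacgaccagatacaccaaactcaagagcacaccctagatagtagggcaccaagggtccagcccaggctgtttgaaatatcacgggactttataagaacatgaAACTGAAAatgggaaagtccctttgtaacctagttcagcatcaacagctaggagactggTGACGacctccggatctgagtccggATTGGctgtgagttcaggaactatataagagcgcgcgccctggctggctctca

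Read over all 32851 promoter entries of the same length, an IRF core was present in 21.3%, a kappaB site in 1.53%, an X2 half-site in 17.8% and a Y box in 33.8%. All 4 occurred together in 14 entries (0.0426%), which included H2-K1 and H2-D1. B2m held 3 of the 4 and no match to the kappaB letters searched, and other forms of that site were not looked for. Tap1 and Psmb9 held an X2 half-site and a Y box, and Tapbp held 2 Y boxes. Psmb8 and Psmb10 held no match to these letters. For H2-D1, Tapbp, Psmb8 and Psmb9 the window lies inside the GENCODE M21 gene span, which starts further upstream. Bases before those upstream starts were not searched. The windows of Tap1 and Psmb9, genes that are transcribed away from each other, overlapped by 225 of 250 bases, so their matches are the same 2 pieces of DNA. The pair of half-site and Y box at 20 bases of spacing, counted in either orientation, was present in 30 entries (0.0913%) from 26 genes. In 18 of the 30 entries it had the orientation of the 3 stretches printed above. This pattern was chosen after these sequences were seen. Of the 22 tested genes with the pair in either orientation, 4 fell and 6 rose with TGF-β1, beside 23.2% lower and 21.3% higher over all tested genes. Those that fell included H2-K1 and H2-D1, from which the pattern was taken, and B2m, its other source, was not called. H2-M3, a nonclassical class I heavy chain, also carries the spaced pair, at 6.44 ± 0.392 CPM (counts scaled to library size; SD, n = 2) in the controls and 6.03 ± 0.656 (SD, n = 3) with TGF-β1 (adjusted p = 0.636 by edgeR's quasi-likelihood test). Genes with the spaced pair thus included some that fell, some that rose and some that were not called. A match is a description of the letters and does not show that a factor was bound.

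**Figure D1:**
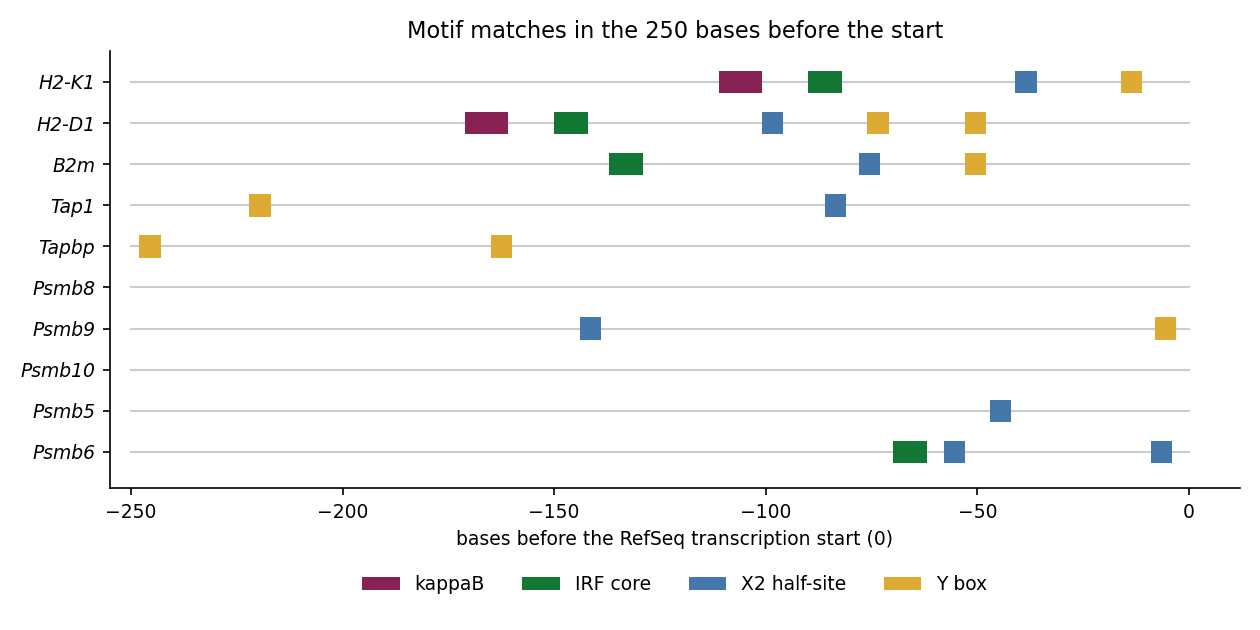
Positions of motif matches in the 250 bases before the RefSeq transcription start (x axis, bases before the start) for the 8 of 10 genes with an entry and for the constitutive subunits Psmb5 and Psmb6; each coloured block is 1 match on either strand. H2-K1 and H2-D1 hold matches to all 4 motifs in the same order, B2m to 3, and Psmb8 and Psmb10 to none. For H2-D1, Tapbp, Psmb8 and Psmb9 the window lies inside the GENCODE M21 gene span, which starts further upstream.

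The libraries held 34283288 to 43163967 counts. Fibroblast markers were abundant, with 12 of 12 tested (7 higher and 5 lower with TGF-β1) and summed levels of 50730 to 62330 CPM, and 5 of 12 epithelial markers, including Sftpc, Sftpb and Nkx2-1, were at 0 counts in every library. Leukocyte markers were present and mostly fell, with 9 of 11 tested markers lower and 1 higher (4 of the 15 were not tested, and the T-cell marker Cd3e was at 0). Their sum was 2679 and 2599 CPM in the controls and 1635 to 1660 CPM with TGF-β1. Lyz2, a lysozyme of macrophages and other myeloid cells, fell from 1994.5 ± 49.4 CPM (SD, n = 2) to 1137 ± 11.7 (SD, n = 3), whereas Ptprc, the pan-leukocyte surface antigen CD45 and the 1 marker that rose (named after its value was seen), went from 26.4 ± 1.29 to 32.3 ± 0.700 CPM. Mesothelial markers fell in 11 of 12 cases, with sums of 1825 and 1735 CPM in the controls and 411.5 to 438.3 CPM with TGF-β1. The sums of epithelial markers were 93.7 and 88.7 against 83.5 to 86.4 CPM, with 2 lower and 1 higher of 6 tested, and those of endothelial markers 30.6 and 36.4 against 39.6 to 42.1 CPM, with 0 lower and 1 higher of 9 tested (0 lower also at an unadjusted p under 0.05, with DESeq2 and with limma-voom). For comparison with these marker counts, 23.2% of all tested genes were lower and 21.3% higher. Control 2 was not above control 1 in the leukocyte, mesothelial, epithelial or fibroblast sum, but it was in the endothelial sum. It was above control 1 in 9 of 9 tested endothelial markers, against 48.6% of all tested genes. The part that these cell types had in the results below was not tested, and in bulk RNA fewer cells of a type cannot be told apart from less RNA per cell.

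With TGF-β1, 7 of the 10 class I genes fell and 0 rose, and B2m, Psmb9 and Psmb10 were not called. The background was 23.2% of all tested genes lower and 21.3% higher (edgeR's quasi-likelihood test, Benjamini-Hochberg adjusted p under 0.05). The count of 0 risen members was also 0 at an unadjusted p under 0.05, with DESeq2 and with limma-voom, and DESeq2 called 8 members lower and limma-voom 7. The median log2 fold change of the 10 genes was -0.43, beside 0.0 over all tested genes. In 8 of the 10, all but B2m and Psmb9, every TGF-β1 library lay below both controls, against 33.0% of tested genes, and in 0 did every TGF-β1 library lie above both, against 31.6% of tested genes. The declines of the 7 called genes ran from 16.6% for H2-K1 to 50.9% for Nlrc5. The summed level of the 10 genes was 903.6 and 1003 CPM in the controls and 799.3 to 859.3 CPM with TGF-β1, a sum in which B2m, the most abundant, held the largest share.

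**Figure D2:**
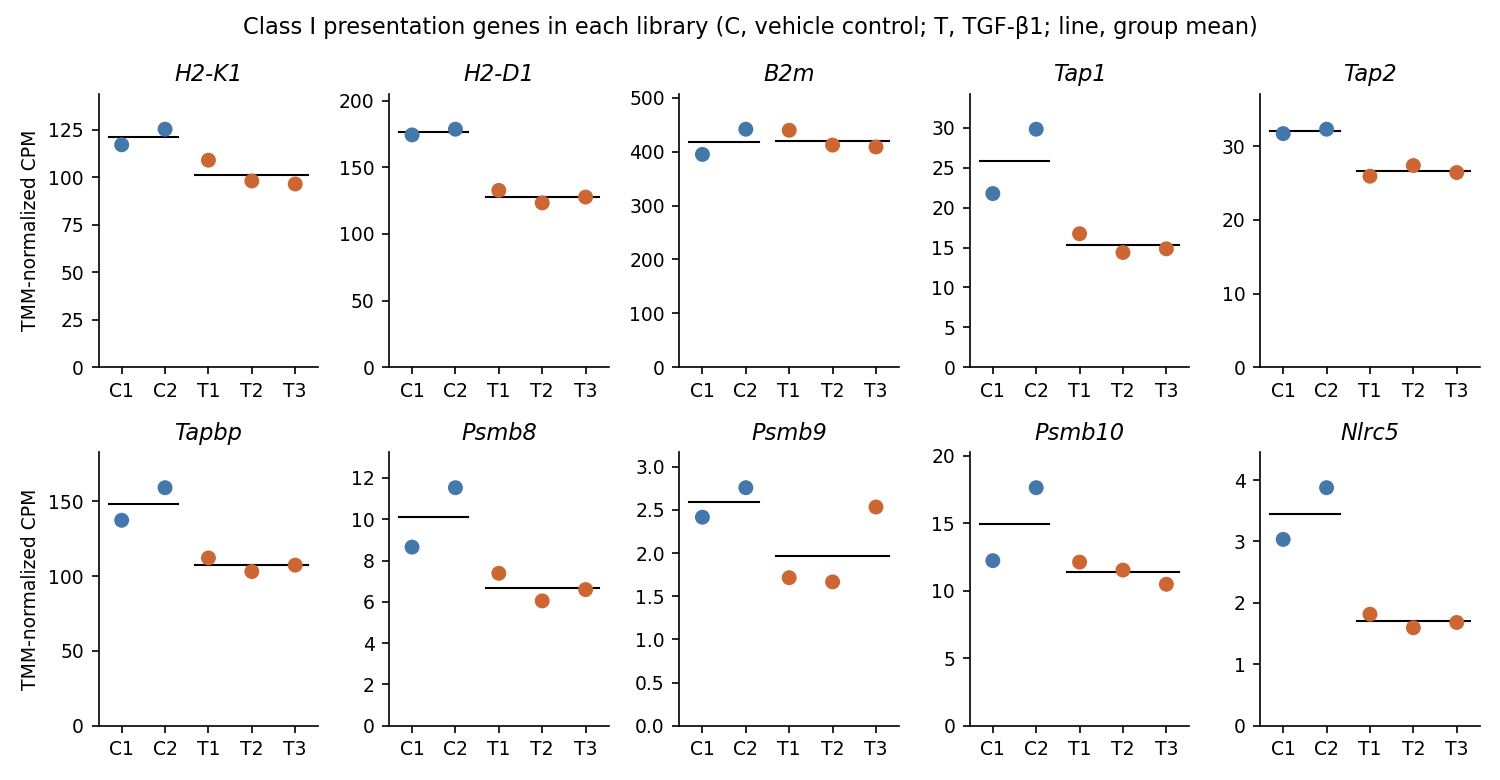
Level of each of the 10 genes in each library (y axis, CPM after TMM scaling, from 0; C1 and C2, vehicle controls, T1 to T3, TGF-β1; each point is 1 library and each line a group mean). The TGF-β1 points lie below both controls in 8 of the 10 genes, and B2m and Psmb9 overlap.

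The classical heavy chains fell while the level of their light chain did not pass the test. H2-K1 (ENSMUSG00000061232, chr17:33996017-34000347), which presents peptides to CD8+ T cells, was at 117 and 125 CPM in controls 1 and 2 and at 109, 98.0 and 96.4 CPM in the TGF-β1 libraries. The highest TGF-β1 library lay 6.95% below the lower control, so the groups did not overlap but came close. Its log2 fold change was -0.26 (SE 0.0587, adjusted p = 0.00549 by edgeR). H2-D1 (ENSMUSG00000073411, chr17:35262730-35267499), the second classical heavy chain, was at 174 and 178 CPM in the controls and at 133, 123 and 128 CPM with TGF-β1. The SD of the 2 controls was 3.00 CPM, and the highest TGF-β1 library was 23.9% below the lower of them. H2-D1 fell by 0.46 on the log2 scale (SE 0.0406, adjusted p = 1.54e-05 by edgeR), which is 27.5% on the linear scale. Of the 100-base windows along the longest coding transcript of H2-D1, 4.64% also occur in another gene, mostly in H2-Q1. The counting of such reads is not given in the sources used here. The longest coding transcript of H2-K1 had no such window, and exonic bases outside these transcripts were not searched.

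B2m (ENSMUSG00000060802, chr2:122147686-122153083), the invariant light chain shared by all these heavy chains, was at 395 and 442 CPM in the controls and at 439.9, 412 and 409 CPM with TGF-β1. All 3 TGF-β1 libraries lay between the controls. The group means were 418.5 ± 33.1 CPM (SD, n = 2) and 420.4 ± 17.0 CPM (SD, n = 3), a log2 difference of 0.01 (SE 0.0493, adjusted p = 0.931 by edgeR). The sign of this difference flips with library-total scaling (-0.09) and upper-quartile scaling (-0.0024), and with the control used, being 0.09 against control 1 and -0.07 against control 2.

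All 3 genes of peptide transport and loading fell. Tap1 (ENSMUSG00000037321, chr17:34187553-34197225), one chain of the peptide transporter, was at 21.8 and 29.8 CPM in the controls and at 16.7, 14.4 and 14.8 CPM with TGF-β1. Control 2 was 1.37 times control 1, yet the highest TGF-β1 library was still 23.1% below control 1. The group means were 25.8 ± 5.71 (SD, n = 2) and 15.3 ± 1.25 CPM (SD, n = 3), a log2 fold change of -0.76 (SE 0.129, adjusted p = 0.00116 by edgeR). Tap2 (ENSMUSG00000024339, chr17:34203527-34216321), the other chain, was at 31.7 and 32.3 CPM in the controls and at 26.0, 27.4 and 26.4 CPM with TGF-β1. Its controls differed by a factor of 1.02 only, and the groups were 13.7% apart at their nearest. Tap2 fell by 0.27 on the log2 scale (SE 0.0593, adjusted p = 0.00509 by edgeR). Tapbp (ENSMUSG00000024308, chr17:33915899-33929292), which encodes tapasin, was at 137 and 159 CPM in the controls and at 112, 103 and 107 CPM with TGF-β1. No TGF-β1 library came within 18.4% of the lower control. The log2 fold change of Tapbp was -0.46 (SE 0.0626, adjusted p = 0.000274 by edgeR). Tapbp shares 149 exonic bases with Zbtb22 on the same strand, a gene at 26.1 CPM, so a part of its count is uncertain.

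Among the immunoproteasome subunits Psmb8 fell, and Psmb9 and Psmb10 were not called. Psmb8 (ENSMUSG00000024338, chr17:34197721-34201454), the inducible chymotrypsin-like subunit, was at 8.65 and 11.5 CPM in the controls and at 7.38, 6.05 and 6.59 CPM with TGF-β1. The highest TGF-β1 library was 14.7% below control 1. Psmb8 fell by 0.60 on the log2 scale (SE 0.151, adjusted p = 0.00991 by edgeR). Psmb10 (ENSMUSG00000031897, chr8:105935735-105938444), the inducible trypsin-like subunit, was at 12.2 and 17.6 CPM in the controls and at 12.1, 11.5 and 10.5 CPM with TGF-β1. The TGF-β1 libraries sat just under control 1, the highest by 0.914%, and well under control 2, which was 1.44 times control 1. Its log2 fold change of -0.40 (SE 0.148) had an adjusted p of 0.056 by edgeR, and it was called lower with DESeq2 (adjusted p = 0.0457). Psmb9 (ENSMUSG00000096727, chr17:34181987-34187764), the inducible subunit that replaces the caspase-like one, was at 2.42 and 2.76 CPM in the controls and at 1.72, 1.67 and 2.53 CPM with TGF-β1. The third TGF-β1 library lay between the controls and the other two lay below both. The log2 difference was -0.40 (SE 0.240, adjusted p = 0.218 by edgeR), from counts of only 69 to 116 per library. Psmb9 and Tap1 lie on opposite strands and share 212 exonic bases, and Tap1 was the more abundant at 19.7 against 2.23 CPM, so the level of Psmb9 is uncertain if strand was not used in counting.

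Nlrc5 (ENSMUSG00000074151, chr8:94434356-94527272), the NOD-like receptor protein that acts as the class I transactivator, had the largest fitted decline of the 10. It was at 3.03 and 3.88 CPM in the controls and at 1.82, 1.59 and 1.68 CPM with TGF-β1. The 3 TGF-β1 libraries were close to one another, and the highest was 40.2% below the lower control. Its log2 fold change was -1.03 (SE 0.199, adjusted p = 0.00245 by edgeR), from counts of 108 and 163 in the controls and 65 to 73 with TGF-β1. A noncoding gene on the opposite strand, 9330175E14Rik, overlaps it by 78 exonic bases at 0.422 CPM.

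The size of these declines depended on which control was used, while the direction did so for B2m alone. Control 2 was above control 1 in 10 of the 10 genes, against 48.6% of tested genes, with a median log2 difference of 0.20. Against control 1 alone the median log2 fold change of the 10 genes was -0.32, and against control 2 alone it was -0.52. In a fit with control 1 alone, 5 of the 10 were called lower (H2-D1, Tap1, Tap2, Tapbp and Nlrc5; 16.7% of tested genes were lower in that fit). With control 2 alone, 8 were called (16.5% of tested genes), these 5 with H2-K1, Psmb8 and Psmb10. H2-D1 and Tap2 moved least, H2-D1 with log2 fold changes of -0.45 and -0.48 (adjusted p = 0.000863 and 0.000624 by edgeR) and Tap2 with -0.25 and -0.28. Psmb10 moved most, from -0.10 (adjusted p = 0.601) against control 1 to -0.63 (adjusted p = 0.00741) against control 2, and Tap1 went from -0.51 to -0.96. H2-K1 and Psmb8 missed the threshold against control 1, at adjusted p-values of 0.0757 and 0.127 by edgeR. A fit with 1 control assumes that this control varies like the TGF-β1 group.

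**Figure D3:**
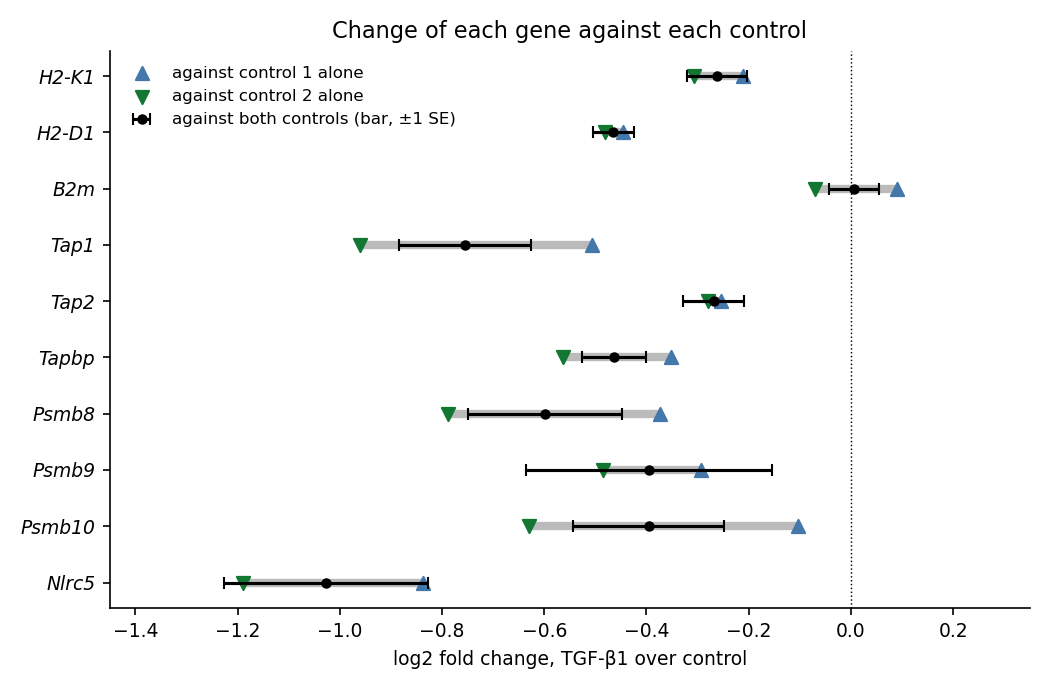
Log2 fold change of TGF-β1 over control for each gene (x axis) against control 1 alone, control 2 alone and both controls, with 1 SE around the last and a grey line joining the single-control values. H2-D1 and Tap2 hardly move between controls, whereas Tap1 runs from -0.51 to -0.96 and Psmb10 from -0.10 to -0.63.

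Compared per kilobase of exon, the 10 genes covered a wide span of levels. B2m led with 487 CPM per kilobase in the controls and 489 with TGF-β1. H2-D1 followed at 68.4 and 49.6, H2-K1 at 41.2 and 34.4, and Tapbp at 40.9 and 29.6. H2-K1 and Tapbp did not differ in the controls beyond the spread of the libraries, since Tapbp ran from 37.9 to 43.9 and H2-K1 from 39.8 to 42.6. Psmb10 (8.75 and 6.67) and Tap2 (8.47 and 7.04) overlapped in both groups. Tap1 was at 4.71 and 2.80, Psmb8 at 2.98 and 1.97, Psmb9 at 0.707 and 0.539 and Nlrc5, the scarcest, at 0.407 and 0.200 CPM per kilobase. With the length of the longest coding transcript in place of all exons, the means of H2-K1 and H2-D1 with TGF-β1 were 62.4 and 60.8, and their libraries overlapped (59.5 to 67.3 and 58.6 to 63.1).

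Of the 10 genes, 7 lie on chromosome 17 in the MHC region, and Tap1, Psmb8, Tap2 and Psmb9 form 1 cluster there. The spans of Psmb9 and Tap1 overlap by 212 bases, Psmb8 starts 495 bases after Tap1, and Tap2 starts 2072 bases after Psmb8. Their log2 fold changes ran from -0.27 for Tap2 to -0.76 for Tap1. Nlrc5 and Psmb10 are both on chromosome 8, and B2m is on chromosome 2.

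All 3 constitutive catalytic subunits, which the inducible ones replace, rose with TGF-β1, beside 21.3% of all tested genes. Psmb5, the constitutive chymotrypsin-like subunit, rose from 78.1 ± 4.32 CPM (SD, n = 2) to 100.5 ± 4.80 (SD, n = 3), a log2 fold change of 0.36 (adjusted p = 0.000564 by edgeR). Psmb6, the caspase-like subunit, rose by 0.26 on the log2 scale (64.9 ± 1.22 to 77.5 ± 3.10 CPM, adjusted p = 0.00248), and Psmb7, the trypsin-like subunit, by 0.32 (62.5 ± 0.325 to 78.0 ± 2.71 CPM, adjusted p = 0.000514). All 3 were called higher in each alternative scaling, filter and tool tried and with each library left out. Of the 100-base windows of Psmb5, 24.9% are also found in another gene, 23.6% in its near-identical copy Gm3375, so its count is uncertain.

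Ratios within a library do not depend on how libraries are scaled, and they were taken here on counts without length, so they compare libraries and not the 2 genes. The Psmb8 count was 11.5% and 14.2% of the Psmb5 count in the controls and 6.99%, 6.06% and 6.87% with TGF-β1. Psmb10 was at 19.6% and 28.1% of Psmb7 in the controls and at 15.0%, 15.3% and 13.4% with TGF-β1. Psmb9 was at 3.67% and 4.31% of Psmb6 in the controls and at 2.12%, 2.19% and 3.36% with TGF-β1. Every TGF-β1 library lay below both controls in all 3 ratios, including Psmb9/Psmb6, where the third library came nearest to the controls. Of single tested genes 33.0% did so, and no such share was computed for ratios. All 3 denominators were called higher, and the Psmb5 count is uncertain, as said above. Psmb9 itself overlapped between the groups, so the separation of its ratio depends on Psmb6. The geometric mean of the ratio was lower by a factor of 1.93 for Psmb8/Psmb5, 1.61 for Psmb10/Psmb7 and 1.59 for Psmb9/Psmb6. Exact two-sided permutation p-values were 0.1, 0.1 and 0.2 (0.15, 0.15 and 0.2 after Benjamini-Hochberg adjustment over the 3), and 0.1 is the smallest that 2 against 3 libraries can give.

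**Figure D4:**
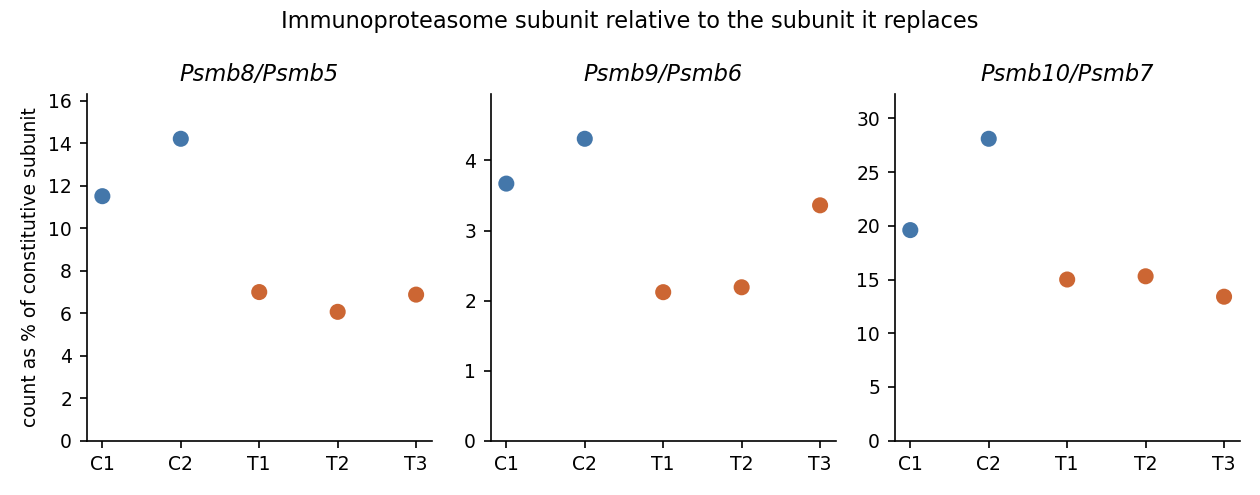
Count of each immunoproteasome subunit as a percentage of the count of the constitutive subunit it replaces (y axis, from 0) in each library (C1 and C2, controls in blue, T1 to T3, TGF-β1 in orange). Psmb8/Psmb5 drops from 11.5% and 14.2% to between 6.06% and 6.99%, and in Psmb9/Psmb6 the third TGF-β1 library, at 3.36%, is nearest to the controls.

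Of 21 other class I heavy chains listed, 14 were tested. Among these, 7 were lower, 0 higher and 7 not called by edgeR, beside 23.2% lower and 21.3% higher over all tested genes. Their median log2 fold change was -0.45. At an unadjusted p under 0.05, 1 was higher, and 0 were higher with DESeq2 or limma-voom. Without control 2, 4 were lower, and without TGF-β1 library 1, 1 was higher. H2-Q4 fell from 10.8 ± 3.04 CPM (SD, n = 2) to 4.57 ± 1.45 (SD, n = 3), a log2 fold change of -1.25 (adjusted p = 0.00261 by edgeR). H2-T22, a nonclassical heavy chain recognised by γδ T cells, fell by 1.22 (79.7 ± 9.97 to 34.2 ± 2.12 CPM, adjusted p = 2.19e-06). H2-T23, which encodes Qa-1, a ligand of the CD94/NKG2A receptor of natural killer cells, fell by 0.47 (34.9 ± 5.85 to 25.3 ± 1.58 CPM, adjusted p = 0.0043). These genes have near-identical relatives, with 14.2% of the 100-base windows of H2-T22, 7.28% of those of H2-T23 and 2.66% of those of H2-Q4 also found in another gene.

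Genes listed as serving class I loading, mostly general chaperones and peptidases, were mixed. Of 13 tested, 6 rose, 3 fell and 4 were not called, with a median log2 fold change of 0.12. The shares over all tested genes, for this list and the next, were 21.3% higher and 23.2% lower. The count lower was 1 without the low-count filter and without control 2, TGF-β1 library 1 or TGF-β1 library 2. Thop1, a cytosolic oligopeptidase, rose from 31.7 ± 2.41 CPM (SD, n = 2) to 42.1 ± 0.772 (SD, n = 3; log2 fold change 0.41, adjusted p = 0.00052 by edgeR). Pdia3, the disulfide isomerase ERp57 of the loading complex, rose from 1003 ± 2.07 to 1298 ± 18.8 CPM (0.37, adjusted p = 9.86e-07). Calreticulin (Calr, 0.22, adjusted p = 7.58e-05) and calnexin (Canx, 0.33, adjusted p = 3.75e-06), lectin chaperones of all glycoproteins, also rose and were named after their values were seen. Ube2l6, a conjugating enzyme for the interferon-induced modifier ISG15 rather than a chaperone or peptidase, fell by 0.91 on the log2 scale (37.6 ± 8.26 to 19.98 ± 2.80 CPM, adjusted p = 0.000662). The others of this list that fell were Tapbpl (-0.37, adjusted p = 0.0361 by edgeR) and Npepps (-0.12, adjusted p = 0.0454), also named after their values were seen. Among 10 activators and assembly factors of the proteasome, 1 fell and 2 rose, with a median log2 fold change of 0.13 (2 fell without control 1). The one that fell was Psme1, a subunit of the interferon-inducible activator PA28 (-0.41, 38.6 ± 3.99 to 29.1 ± 0.425 CPM, adjusted p = 0.00125), and those that rose were the nuclear activators Psme3 (0.30, adjusted p = 0.000297) and Psme4 (0.52, 88.8 ± 3.53 to 127 ± 4.93 CPM, adjusted p = 2.06e-05).

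The class II pathway, which displays peptides from endocytosed proteins, was mixed, with 8 of 13 genes above the low-count filter. Of these, 1 was lower, 2 higher and 5 not called, beside 23.2% lower and 21.3% higher over all tested genes. Their median log2 fold change was 0.27. H2-DMa, a chain of the peptide editor, rose from 5.30 ± 0.805 CPM (SD, n = 2) to 9.59 ± 0.759 (SD, n = 3; log2 fold change 0.86, adjusted p = 0.000875 by edgeR). Its partner H2-DMb1 fell by 0.51 (23.9 ± 1.10 to 16.8 ± 1.28 CPM, adjusted p = 0.00102), with 13.7% of its 100-base windows also found in H2-DMb2. Ctss, the protease cathepsin S, rose by 0.55 (93.9 ± 1.90 to 137 ± 2.93 CPM, adjusted p = 4.04e-06). Ciita, the class II counterpart of Nlrc5, had 3 counts in 1 TGF-β1 library and 0 in the other four.

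Most factors that bind class I promoters were not called. Of 12 tested, 3 fell, 0 rose and 9 were not called, beside 23.2% lower and 21.3% higher over all tested genes. Their median log2 fold change was -0.02, and 0 were higher at an unadjusted p under 0.05, with DESeq2 or with limma-voom. Rfx5, a subunit of the RFX complex at the X1 box, fell by 0.39 (24.6 ± 1.92 CPM, SD, n = 2, to 18.7 ± 2.80, SD, n = 3; adjusted p = 0.0248 by edgeR). Relb, an NF-κB subunit, fell by 0.38 (adjusted p = 0.0228), and Nfyc, a subunit of the Y-box factor NF-Y with a near-identical copy for 19.5% of its windows, by 0.16 (adjusted p = 0.0401). This count depended on the settings: 6 were lower with library-total scaling and 0 without the low-count filter or without control 1, and 1 was lower without control 2, TGF-β1 library 1 or TGF-β1 library 2.

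Of 20 interferon ligands, 18 had 0 counts in every library, Ifng and Ifnb1 among them, and 0 could be tested; Ifne and Ifnz had 41 counts in all. A count of 0 allows up to 3 counts, or 0.0695 to 0.0875 CPM in these libraries, for counting error only. Among 22 receptors, kinases and transcription factors of the pathway, 11 fell, 1 rose and 10 were not called, with a median log2 fold change of -0.21. The shares over all tested genes were 23.2% lower and 21.3% higher. Stat2, a transcription factor of the type I pathway, was at 44.4 and 75.8 CPM in the controls and at 23.2, 19.97 and 25.3 CPM with TGF-β1 (log2 fold change -1.40, adjusted p = 0.000259 by edgeR). The groups did not overlap, and control 2 was the higher control. Irf7, the inducible factor that amplifies type I interferon, fell by 2.01 (adjusted p = 0.00308 by edgeR). Control 2 was above control 1 by a factor of 1.71 for Stat2 and 3.09 for Irf7. Irf1, which is known to act on the promoters of Tap1 and Psmb9 and was named after its value was seen, was at 20.4 and 18.7 CPM in the controls and at 22.1, 18.9 and 18.3 CPM with TGF-β1. Its groups overlapped (log2 difference 0.02, adjusted p = 0.895). Of the remaining IRF genes listed, Irf2 (-0.39), Irf5 (-0.90) and Irf9 (-0.76) were called lower, and Irf3 and Irf8 were not called. The receptor gene that rose was Ifngr1, also named after its value was seen (0.16, adjusted p = 0.0414), and 0 genes of this list were called higher with library totals, without the low-count filter, or without control 2 or TGF-β1 library 1.

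Of 49 tested interferon-stimulated genes outside class I presentation, 44 fell, 0 rose and 5 were not called, beside 23.2% lower and 21.3% higher over all tested genes. The count higher was also 0 at an unadjusted p under 0.05, with DESeq2 and with limma-voom. Their median log2 fold change was -1.50, beside -0.43 for the 10 class I genes. Ifit1, an antiviral RNA-binding protein, was at 7.95 and 21.04 CPM in the controls and at 1.37, 0.785 and 2.38 CPM with TGF-β1 (-3.28, adjusted p = 0.000303 by edgeR). Tgtp1, an interferon-γ-induced GTPase, fell by 2.97 (11.3 ± 3.17 CPM, SD, n = 2, to 1.44 ± 0.0697, SD, n = 3; adjusted p = 2.1e-06), although 83.3% of its windows occur in another gene, most of them in Tgtp2. Rtp4, an interferon-induced chaperone, fell by 2.37 (adjusted p = 0.00209). Control 2 was above control 1 in 47 of the 49, with a median log2 difference of 0.73, so the median log2 fold change was -0.85 against control 1 alone and -1.89 against control 2 alone. Without control 2, 27 of them were called lower. The summed leukocyte markers, given above, were lower with TGF-β1 as well, and their part in these lists was not tested.

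**Figure D5:**
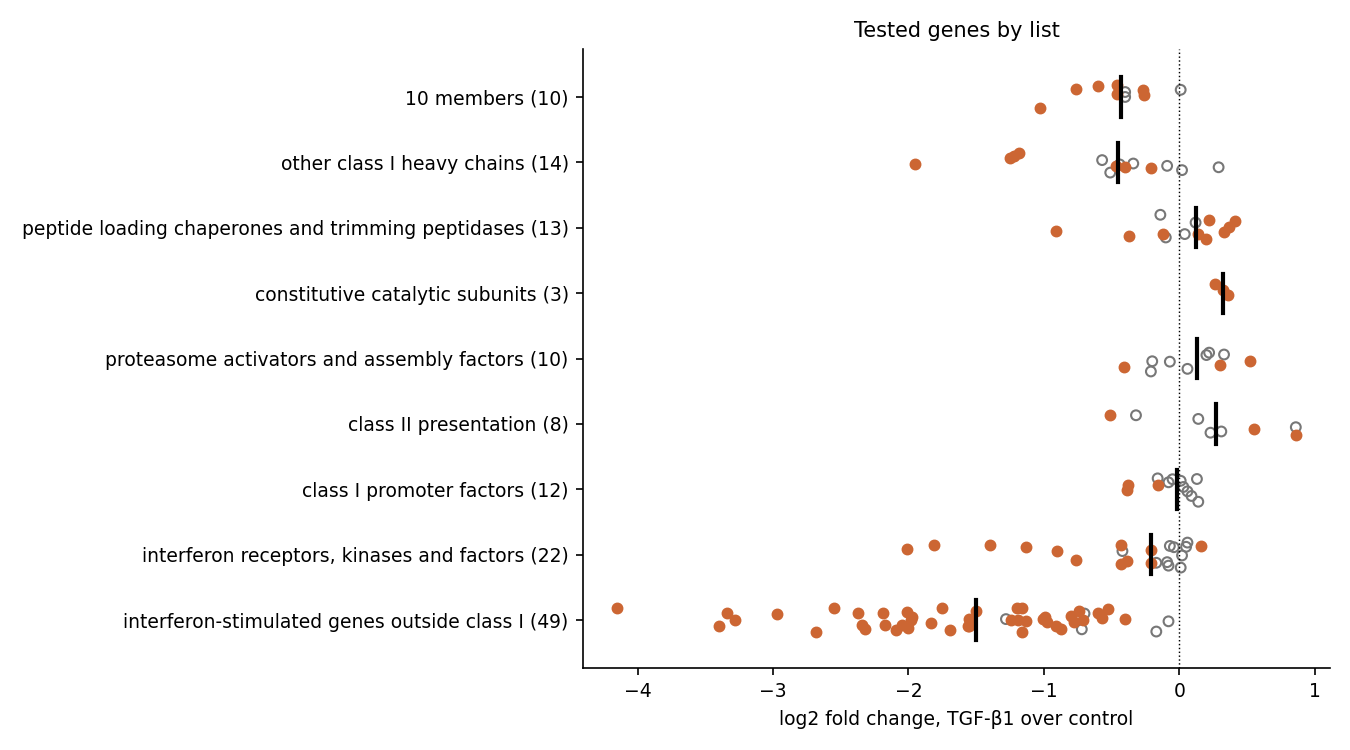
Log2 fold change of TGF-β1 over control (x axis) for every tested gene of each list, with the number tested in parentheses; filled points have an adjusted p under 0.05, open points were not called, and the black bar is the median. The 10 class I genes have a median of -0.43, the constitutive subunits lie to the right of 0, and the interferon-stimulated genes reach below -3 around a median of -1.50.

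The genes whose pattern over the 5 libraries was most like the median of the 10 were sought among 10917 others with a mean of at least 5 CPM. Likeness was the mean absolute difference of log2 CPM, each gene centred on its own mean. Among the 5 nearest were Nxt2, an mRNA export cofactor (0.0262), Cd52, a leukocyte surface glycoprotein and one of the leukocyte markers above (0.0265), Gpx1, a glutathione peroxidase (0.0310), and Incenp, a subunit of the chromosomal passenger complex (0.0312). Of the 10 genes themselves, Tapbp was nearest to the median at 0.0103 and H2-D1 next at 0.0369, while B2m (0.217) and Nlrc5 (0.265) were farthest. The median profile was 0.15 and 0.36 in controls 1 and 2 and -0.13, -0.24 and -0.19 with TGF-β1, so that many genes with a moderate decline and a higher control 2 lie near it.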

How the data were processed

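Gene counts were deposited by the authors as 1 table of whole numbers for 5 libraries, without scaling. RNAiso Plus was used for extraction and a Vazyme VAHTS kit for stranded polyA libraries, per the labels' protocols. The submitters' processing notes name STAR 2.5.3a, StringTie 1.3.1c and mm10; for the counting tool, its strand setting and the annotation release the sources used here say nothing. Columns were matched to samples by title. Gene IDs were given GENCODE M21 (GRCm38) symbols, coordinates and exons (55154 of 55335 matched; the other 181 IDs, with up to 0.00374% of the counts per library, were kept).

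Genes were filtered with filterByExpr, scaled by TMM (factors 0.972 to 1.05) and tested with edgeR 4.0.16 (R 4.3.3; quasi-likelihood F test on group, two-sided, Benjamini-Hochberg adjustment over 16380 genes, threshold 0.05). The common biological coefficient of variation was 0.0765. CPM are counts scaled to the same TMM-adjusted library size. Alternatives were DESeq2 1.42.0, limma-voom (limma 3.58.1), other scalings and filters, a replicate block, and fits without each library in turn. Single-control fits leave out the other control. Ratios were tested by exact permutation. The script was tested on simulated data. Promoters and motifs were read with Python 3.11.15.

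The members, 9 pathway lists and 5 marker lists (227 entries besides the members) were chosen with earlier results of these data known. Beyond the 10 genes, named genes were, by absolute log2 fold change, up to 3 called genes of each list that averaged 5 CPM or more over the libraries (the most abundant tested gene where none qualified), the 3 constitutive subunits, and the 5 genes of most similar pattern; 2 genes taken by this rule are not reported here. Marker lists are given mainly as sums. Exon overlaps are mentioned where the other gene was counted at over 0.1 of the level of the named gene. Shared sequence is the percentage of 100-base windows of a gene's longest protein-coding transcript found in another gene.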

Additional observations from a re-analysis of the deposited data

How the results depend on the processing

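Of 130 alternative log2 fold changes of the 10 genes, 120 kept their direction and their side of the threshold. Of 234 list counts, 216 stayed within 1.5 times. These include the counts of the interferon ligands, of which 0 were tested in the main fit, so that they had little room to change. The count of members lower was 7, or 8 with library totals, the filter of over 1 CPM, DESeq2 and without control 1, and 5 without control 2; leaving out libraries it ranged from 5 to 8. Psmb10 was called with library totals (-0.50, adjusted p = 0.0229), over 1 CPM in at least 2 libraries (-0.39, 0.048), DESeq2 (-0.39, 0.0457) and without control 1 (-0.63, 0.00741). B2m turned negative with upper-quartile scaling (-0.0024), library totals (-0.09) and when libraries were left out (range -0.07 to 0.09). With library totals the median of all genes moved to -0.10. In that setting 2325 genes in all rose, against 3488 with TMM, so that 32.1% of calls were higher in place of 47.9%. Library totals leave out the TMM factors, which were 1.039 and 1.045 for the controls and 0.9717 to 0.9737 with TGF-β1. Why these factors differed between the groups was not tested.

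Loading chaperones and peptidases lower numbered 1 without the low-count filter, promoter factors lower 6 with library totals and 0 without the filter, and interferon receptors and factors higher 0 with both. Leaving out libraries gave ranges of 4 to 7 for other class I heavy chains lower and 0 to 1 higher, 1 to 2 for loading genes lower, 1 to 2 for activators lower, 0 to 3 for promoter factors lower, 0 to 1 for interferon receptors and factors higher and 27 to 46 for interferon-stimulated genes lower; the cause was not tested.

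With the replicate number as a block, 7 members were lower and 0 higher, and 3727 genes in all were lower and 3538 higher, each within 1.5 times of the fit without it. TGF-β1 library 3 has no control of the same number, so it adds nothing to the group difference in that fit. Deviations of same-numbered libraries correlated at 0.0159 and 0.0161 over the 2 shared numbers. With 2 controls, the deviation of one is the negative of the other, so these are not separate checks. The numbers were not taken to pair the libraries, but a pairing is not excluded. Psmb9 and Nlrc5, at under 200 counts per library, are the members that depth limits most.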
